A study of Mus musculus with 4 samples.

Results

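The 10 genes described here encode proteins of neutrophil granules, together with a transcription factor of granule formation, and are grouped by the stage of neutrophil maturation at which they are made. They are Mpo, Elane, Prtn3 and Ctsg of the primary granules, Ltf, Camp, Ngp and Lcn2 of the secondary granules, and Chil3 and Cebpe. They were picked by symbol from the 24873 genes of the expression table with their rise after tamoxifen already known, so that this rise is described below without a test. All 10 were listed and passed the filter of a mean of at least 10 normalized counts, as did 20485 genes in all, but they passed only through the tamoxifen libraries, except for Ltf, Camp, Ngp, Lcn2 and Chil3, whose control means were also above it.

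RNA was sequenced from cells of mouse brain in 2 control and 2 tamoxifen libraries. All mice carried the genotype given as Cdh5cre;Mgpflox/flox, in which a tamoxifen-activated Cre under the VE-cadherin (Cdh5) promoter removes Mgp, the gene of matrix Gla protein, from endothelial cells (ECs). Tamoxifen was injected once a day (75 mg/kg) over 5 days in mice aged 10 weeks, whereas control mice of that genotype had no tamoxifen. Cells were taken on day 9, and each library pools 3 mice. The cells were sorted as CD31+CD45-, although the sample labels call them tdTomato+, a fluorescent reporter. The columns of the table bear the letters C and A with a number, and C is here taken for control and A for the arteriovenous malformation seen after tamoxifen. The letter A is not in the sample titles, so the direction of every difference rests on this reading. The spread given below is between pools of mice.

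Neutrophils mature in the bone marrow and fill their granules in a fixed order. Promyelocytes make the primary (azurophil) granules with myeloperoxidase and the neutrophil serine proteases, myelocytes and metamyelocytes make the secondary (specific) granules with lactoferrin and cathelicidins, and later cells make gelatinase granules and secretory vesicles. Since transcription of each set stops as the cell moves on, mature neutrophils of the blood hold the granule proteins but little of the primary granule RNA. PU.1, RUNX and C/EBP factors drive these genes, and C/EBPε, encoded by Cebpe, is required for the secondary granules.

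The 250 bases before the annotated start of each gene were read from GRCm39, the build to which the authors aligned, with the starts of the canonical transcripts of GENCODE M39. The windows of 2 primary and 2 secondary granule genes are shown because the motifs of these factors differed between the sets. Capitals mark matches to TTGCNNAA (C/EBP), GAGGAA (PU.1) and TGTGGT (RUNX) on either strand, and no matches overlapped. Each window ends with the base before the start.
Mpo, chr11:87684157-87684406, plus strand: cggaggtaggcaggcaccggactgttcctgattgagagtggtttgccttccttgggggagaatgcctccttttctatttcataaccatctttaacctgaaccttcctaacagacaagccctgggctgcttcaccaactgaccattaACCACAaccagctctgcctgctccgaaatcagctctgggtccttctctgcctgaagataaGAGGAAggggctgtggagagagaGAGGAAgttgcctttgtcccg
Prtn3, chr10:79715198-79715447, plus strand: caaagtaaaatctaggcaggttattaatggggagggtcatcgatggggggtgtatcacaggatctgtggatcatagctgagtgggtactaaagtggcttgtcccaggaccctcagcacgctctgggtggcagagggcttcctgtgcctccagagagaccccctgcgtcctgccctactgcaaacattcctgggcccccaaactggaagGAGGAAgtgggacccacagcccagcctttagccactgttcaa
Ltf, chr9:110848089-110848338, plus strand: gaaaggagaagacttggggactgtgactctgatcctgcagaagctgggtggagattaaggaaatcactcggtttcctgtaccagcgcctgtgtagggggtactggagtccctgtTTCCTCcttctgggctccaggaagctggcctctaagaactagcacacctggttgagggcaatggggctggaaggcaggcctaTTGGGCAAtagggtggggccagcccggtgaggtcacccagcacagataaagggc
Ngp, chr9:110248565-110248814, plus strand: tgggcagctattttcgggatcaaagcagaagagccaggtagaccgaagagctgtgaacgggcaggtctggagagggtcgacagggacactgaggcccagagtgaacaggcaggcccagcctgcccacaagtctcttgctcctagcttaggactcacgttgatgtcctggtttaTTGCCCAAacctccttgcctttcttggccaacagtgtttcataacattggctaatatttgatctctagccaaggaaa

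All 4 secondary granule genes had a C/EBP match in this window and none of the 4 primary granule genes did. Among 21770 windows of protein-coding genes, 9.34% held such a match. In Ltf it lay from base -54 to -47, in Ngp from -77 to -70, in Camp from -105 to -98 and in Lcn2 from -158 to -151. A PU.1 match stood before all 4 primary granule genes and before 1 of the 4 secondary granule genes, Ltf, against 22.9% of all windows. It began 20 bases before the start of Elane, 42 before that of Prtn3, 216 before that of Ctsg, and 44 and 21 before that of Mpo. RUNX matches were found before Mpo and Ctsg and before no secondary granule gene, against 2835 of the 21770 windows. The window of Cebpe held 2 PU.1 matches and that of Chil3 held no match to any of the 3 motifs. A match is only a string of letters and not a measured binding site.

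The primary granule genes were nearly absent from the control libraries and abundant after tamoxifen, from 998 to 5521 reads per gene and library. Values are normalized counts, namely reads divided by one factor per library. Mpo, which makes hypochlorous acid, had 4.11 in control library 1, 8.76 in control library 2, and 5602 and 3969 in tamoxifen libraries 1 and 2. Elane, the gene of neutrophil elastase, had 6.85 and 1.25 in the control and 1486 and 1004 in the tamoxifen libraries. Prtn3, the gene of proteinase 3, had 4.11 and 1.25 in the control and 1590 and 1109 in the tamoxifen libraries. Both tamoxifen libraries stood far above both control libraries for these 3 genes. Ctsg, the gene of cathepsin G, had 1.37 and 1.25 in the control and 1082 and 777 in the tamoxifen libraries.

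The control values of the primary granule genes rested on few reads. Both control libraries together held 10 reads of Mpo, 6 of Elane, 4 of Prtn3 and 2 of Ctsg, against 10690, 2768, 3010 and 2079 in the tamoxifen libraries. The ratio of the summed reads per unit of library factor was therefore loosely bounded. It was 706 for Mpo (exact 95% interval 384 to 1474), 305 for Elane (139.9 to 832), 497 for Prtn3 (194 to 1826) and 687 for Ctsg (189.9 to 5676), where the intervals cover counting error only. Fold changes were taken on log2(normalized count + 1), a scale on which those of weakly expressed genes come out too small. They were 9.38 for Mpo (SE 0.41), 8.18 for Elane (SE 0.65), 8.61 for Prtn3 (SE 0.55) and 8.63 for Ctsg (SE 0.50). Prtn3 overlaps Plppr3 on the opposite strand and Mpo the antisense RNA gene Gm11505. The libraries were made with a stranded kit, but the strand setting of the counting is not given in the sources used here. Elane and Prtn3 lie 3073 bases apart on chromosome 10, from 79722081 to 79724051 and from 79710310 to 79719008. Mpo lies on chromosome 11 from 87684407 to 87695239 and Ctsg on chromosome 14 from 56337338 to 56340031.

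**Figure D1:**
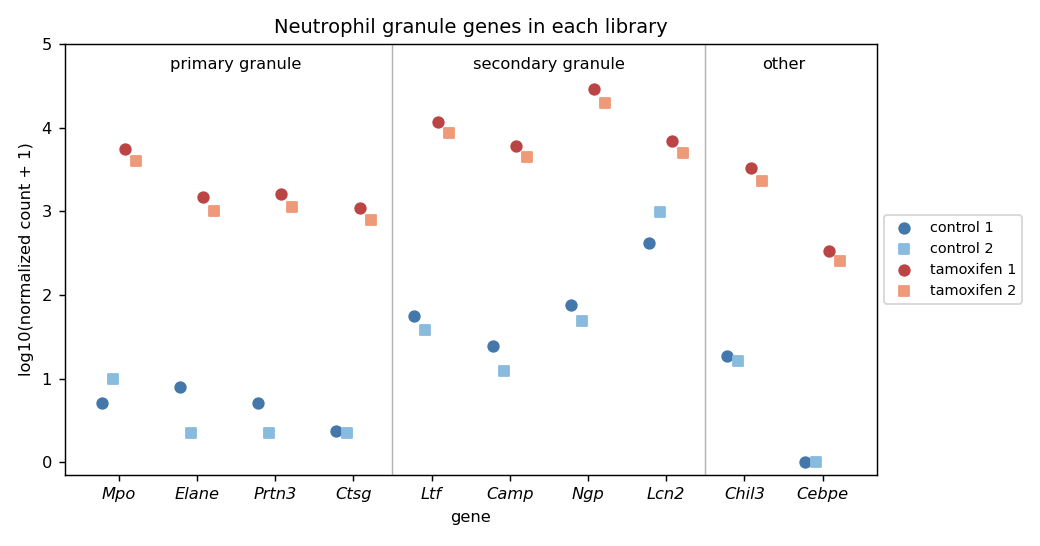
Log10(normalized count + 1) of the 10 genes in each of the 4 libraries, with 1 point per gene and library. In all 10 genes both tamoxifen points lie above both control points, and Lcn2 has by far the highest control points of the set, at 419 and 986 normalized counts.

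Of the secondary granule genes, 3 had a low but countable level in the control libraries and the fourth, Lcn2, was well expressed there. Ngp, the gene of neutrophilic granule protein, a cathelicidin-like protein, had 75.3 and 47.6 normalized counts in the control and 28708 and 19699 in the tamoxifen libraries. Ltf, the gene of the iron-binding lactoferrin, had 54.8 and 37.5 in the control and 11762 and 8626 in the tamoxifen libraries. Camp, the gene of the mouse cathelicidin, had 23.3 and 11.3 in the control and 6036 and 4450.0 in the tamoxifen libraries. For these 3 genes control library 1 was the higher control library and tamoxifen library 1 the higher tamoxifen library. The log2 fold changes were 8.61 for Ngp (SE 0.27), 7.76 for Ltf (SE 0.26) and 8.23 for Camp (SE 0.37). Lcn2, the gene of lipocalin 2, which binds bacterial siderophores and is also an acute-phase gene of other cell types, had 419 and 986 normalized counts in the control and 6860 and 4965 in the tamoxifen libraries. The order of its control libraries was the opposite of that of Ngp, Ltf and Camp. Its log2 fold change of 3.18 (SE 0.37) was the smallest of the 10 genes. The 3 genes Camp, Ngp and Ltf lie on chromosome 9 from 109676442 to 109678685, from 110248815 to 110252086 and from 110848339 to 110871835. Lcn2 lies on chromosome 2 from 32274645 to 32278264.

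Chil3 had a low but countable control level, whereas Cebpe was not detected in the control libraries. Chil3, the gene of the chitinase-like protein Ym1, which macrophages make as well, had 17.8 and 15.02 normalized counts in the control and 3297 and 2271 in the tamoxifen libraries, a log2 fold change of 7.30 (SE 0.32). It lies on chromosome 3 from 106054870 to 106074880. The transcripts of its neighbour Chil4 are 94.3% identical to it over 1540 bases, so reads may be misassigned, although Chil4 was listed with 0 reads in every library. Cebpe, on chromosome 14 from 54947817 to 54949631, had no read in either control library and 335 and 252 normalized counts in the tamoxifen libraries. Against the 3 reads that a count of 0 allows in each control library, or 4.11 and 3.75 normalized counts, it was at least 74.6-fold higher. Its tamoxifen libraries held 309 and 350 reads.

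In all 10 genes the lower tamoxifen value exceeded the higher control value, and all 10 met the criteria for a call (limma with Benjamini-Hochberg, BH, adjusted p under 0.05 and a log2 fold change over 1 in size). Of all tested genes, 43.1% lay above the control libraries in this way and 39.2% below them, and 44.7% were called, 28.6% higher and 16.0% lower. Nothing is read from the count of the 10 genes, since this contrast chose them. Their median log2 fold change was 8.21, also with Cebpe at its lower bound, beside 0.05 over all tested genes. In bulk samples, the number of cells of a type and the RNA per cell cannot be told apart.

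The comparison of the stages depended on Lcn2 and on genes with few control reads. The median log2 fold change was 8.62 for the primary and 7.997 for the secondary granule genes, a difference of -0.63 for secondary minus primary. With a pseudocount of 5 in place of 1 the difference was 0.45, so the order of the sets in fold change is not settled by these libraries. The share of primary granule genes among the reads of the 8 granule genes does not need a pseudocount. It was 2.79% in control library 1 (12 of 430 reads, exact 95% interval 1.45 to 4.82) and 1.14% in control library 2 (10 of 875 reads, 0.55 to 2.09). In the tamoxifen libraries it was 15.5% (9005 of 58245 reads, 15.2 to 15.8) and 15.4% (9542 of 62040 reads, 15.1 to 15.7). Both tamoxifen shares stood above both control shares and differed from each other by less than their intervals.

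Without Lcn2 the control shares were higher but stayed below the tamoxifen shares. They were 9.68% (12 of 124 reads, 5.10 to 16.3) and 11.5% (10 of 87 reads, 5.65 to 20.1) in control libraries 1 and 2, and 17.3% in both tamoxifen libraries (17.0 to 17.7 and 17.0 to 17.6). The interval of control library 2 then overlapped both tamoxifen intervals, whereas that of control library 1 ended below them. These intervals cover counting error within a library and not the spread between pools of mice. Whether the stage balance of the remaining 7 genes differed between the groups was therefore not tested. The mean log2(normalized count per kilobase + 1) of the secondary minus that of the primary granule genes was 3.72 and 4.03 in the control and 2.26 and 2.30 in the tamoxifen libraries. Without Lcn2 it was 3.10 and 2.93 against 2.66 and 2.69. The groups did not overlap on this scale in either case, although the control values of the primary granule genes lie near the pseudocount. Lcn2 made up 69.1% and 88.8% of the reads of the 10 genes in control libraries 1 and 2, but only 10.3% and 10.5% of them after tamoxifen.

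**Figure D2:**
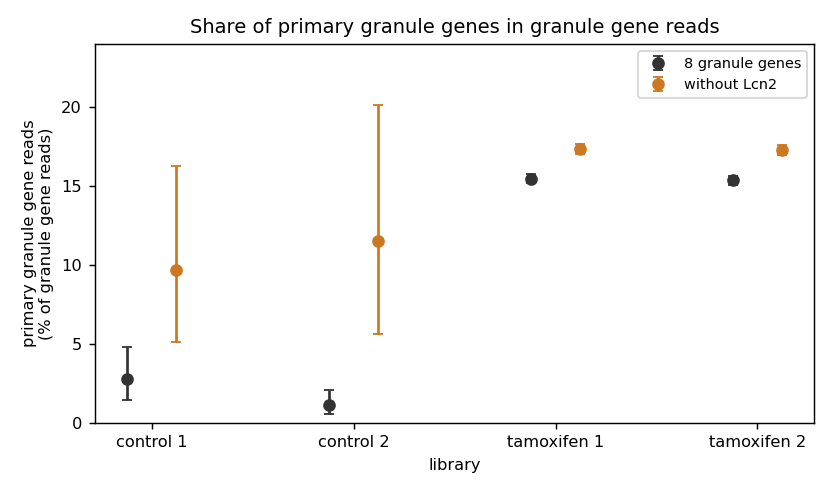
Reads on Mpo, Elane, Prtn3 and Ctsg as a percentage of the reads on the 8 granule genes in each library, with Lcn2 and without it; bars are exact 95% intervals of counting error. The tamoxifen libraries sit at 15.5% and 15.4% with Lcn2 and at 17.3% without it, and the control shares rise from 2.79% and 1.14% to 9.68% and 11.5% when Lcn2 is left out.

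The 2 tamoxifen libraries held the 10 genes in nearly the same proportions. The ratio of tamoxifen library 1 to library 2 in normalized counts lay between 1.33 for Cebpe and 1.48 for Elane, with a median of 1.40. Over the 11742 tested genes with at least 250 reads in both tamoxifen libraries, a limit chosen after the values had been seen, the median ratio was 1.09 and the middle 50% ran from 0.960 to 1.21. Of these genes 6.28% fell between the lowest and the highest of the 10, and of the 2977 called higher 10.1% did. The ratio does not separate the stages, with 1.39 to 1.48 for the primary and 1.356 to 1.457 for the secondary granule genes. As a share of the 61596 and 65549 reads on the 10 genes, Ngp made up 43.0% and 41.8%, Ltf 17.6% and 18.3%, Lcn2 10.3% and 10.5%, Camp 9.04% and 9.44% and Mpo 8.39% and 8.42%. The largest difference between the tamoxifen libraries was the 1.20 percentage points of Ngp. Together the 10 genes took 0.174% and 0.132% of the reads on genes in tamoxifen libraries 1 and 2, and 0.00118% and 0.00216% in control libraries 1 and 2.

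Marker genes of other cells also differed between the tamoxifen libraries. The ratio of library 1 to library 2 ran from 1.359 to 1.553 over 7 erythroid genes and from 1.64 to 2.30 over 8 endothelial genes, all higher in library 1. The medians of the 12 lists drawn in the plot of ratios lay between 1.28 for monocyte and macrophage genes and 1.92 for endothelial genes, so a ratio like that of the granule genes was not particular to them. The ratio was 1.27 for Ptprc, the gene of CD45, at 1423 and 1119 normalized counts. The part of these differences in the ratio of the granule genes was not tested.

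**Figure D3:**
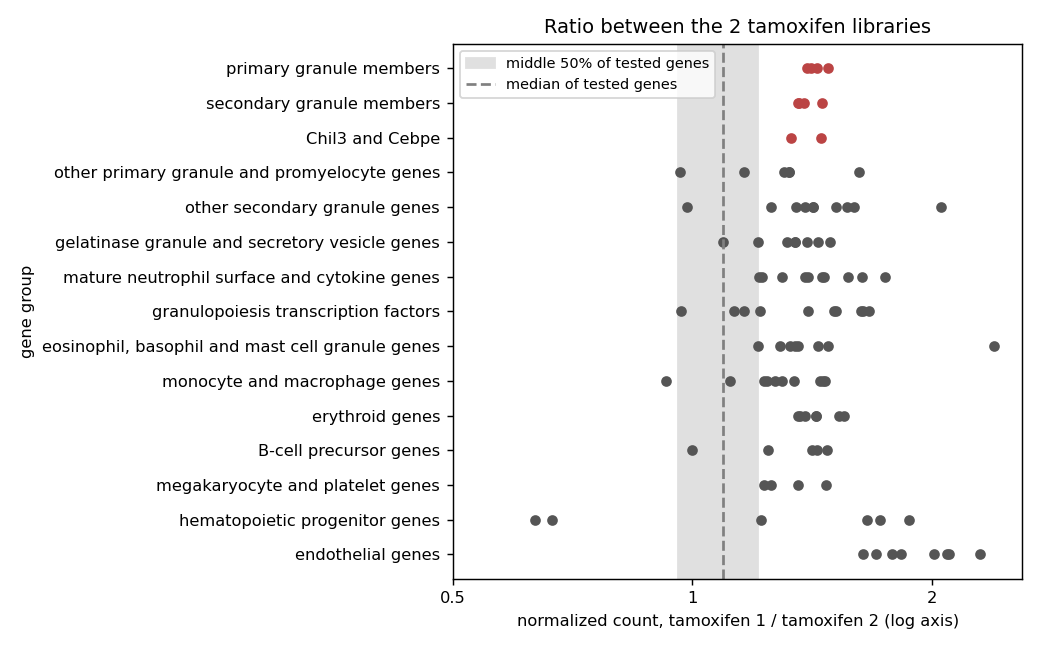
Ratio of the normalized count in tamoxifen library 1 to that in tamoxifen library 2 on a log axis, with 1 point per gene, for the 10 granule genes (red) and the genes of 12 other lists (grey); the band holds the middle 50% of 11742 tested genes. The 10 granule genes span 1.33 to 1.48, to the right of the band, which ends at 1.21.

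Levels per kilobase of annotated exon allow the genes to be ordered within a library. In tamoxifen libraries 1 and 2, Ngp had 20970.0 and 14390.0 normalized counts per kilobase, Camp 6914 and 5097, Ltf 3305 and 2424, Lcn2 2616 and 1893 and Chil3 1884 and 1298. The primary granule genes followed, with 1635 and 1158.5 for Mpo, 1507 and 1019 for Elane, 1047 and 752 for Ctsg and 918 and 640.5 for Prtn3, and Cebpe was last with 269.9 and 202.8. The order was the same in both libraries, and each of the 4 secondary granule genes stood above each of the 4 primary ones in each library. Over both libraries the ranges of Ltf and Lcn2 overlapped, as did those of Chil3 and Mpo, of Mpo and Elane, of Elane and Ctsg and of Ctsg and Prtn3. With the length of the canonical transcript in place of all exons, Lcn2 moved above Ltf and Prtn3 above Elane and Ctsg. In both control libraries Lcn2 was first, with 159.8 and 376 per kilobase, followed by Ngp with 55.0 and 34.7.

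Genes of other granules and stages mostly rose. They were listed by role, but with earlier results of these data known. Of 44 tested genes in 5 lists, 34 were called higher and 5 lower, beside 28.6% and 16.0% of all tested genes. Each list held genes with a control mean under 10, which passed the filter only through the tamoxifen libraries. A fall could not be called for such genes, here or in the counts of each list below. With tamoxifen library 1 left out 21 of these 44 genes were called higher and 4 lower, and with library 2 left out 22 and 4, and the lone library is then assumed to vary like the control libraries. Of 6 further primary granule and promyelocyte genes, 4 rose and 2 fell, with a median log2 fold change of 3.16. Cd63, a tetraspanin of the azurophil granule membrane and of lysosomes in many cells, rose from 337 and 468 to 5520 and 5723 normalized counts (log2 fold change 3.82, SE 0.20, limma, BH-adjusted p = 1.0e-05). Srgn, the gene of the proteoglycan serglycin that packs granule proteins and is also made by ECs, fell from 11091 and 10293 to 3891 and 2405 (log2 fold change -1.80, SE 0.23, limma, BH-adjusted p = 0.000414). Ctsc, whose product cathepsin C activates the granule serine proteases, had 3508 and 3275 in the control and 1668 and 1436 in the tamoxifen libraries (log2 fold change -1.13, limma, BH-adjusted p = 0.000605), and was no longer called when libraries were rescaled to equal totals (-0.66). Ms4a3, a promyelocyte gene named after its values were seen, had 2 reads in both control libraries together and 991 in the tamoxifen libraries. The ratio was 327 per unit of library factor (exact 95% interval of counting error 90.4 to 2708). It passed the filter only through the tamoxifen libraries.

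Of 10 further secondary granule genes, 8 rose, 1 fell and 1 was not called, with a median log2 fold change of 5.86. Cybb, the gene of the heavy chain of the NADPH oxidase, rose from 19.2 and 26.3 to 2895 and 2043 normalized counts, and Slpi, a protease inhibitor that binds elastase, from 1.37 and 13.8 to 2810.3 and 1761. Their log2 fold changes were 6.70 (SE 0.32, limma, BH-adjusted p = 8e-06) and 8.56 (SE 0.79). Slpi passed the filter only through the tamoxifen libraries. Pglyrp1, the gene of a peptidoglycan recognition protein, went the other way, from 16066 and 26459 to 7487 and 3641 (log2 fold change -1.98, SE 0.36, limma, BH-adjusted p = 0.00231). Cyba, the partner of Cybb in the oxidase, had 2120.4 and 2740 in the control and 2465 and 1627 in the tamoxifen libraries and was not called, with a log2 fold change of -0.27, or 0.20 with libraries rescaled to equal totals.

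Gelatinase granule and secretory vesicle genes rose in 6 of 8 cases, and genes of the mature neutrophil surface in 9 of 10, with median log2 fold changes of 3.93 and 6.28 (5.94 with Ly6g at its lower bound). Mmp9, the gene of gelatinase B, rose from 27.4 and 17.5 to 4744 and 3297 normalized counts (log2 fold change 7.43, SE 0.33, limma, BH-adjusted p = 6e-06), and Itgb2, the common beta chain of the leukocyte integrins, rose by 4.77 on the log2 scale (SE 0.28, limma, BH-adjusted p = 1.5e-05). Mmp25, a membrane-bound metalloproteinase, fell from 5030 and 4499 to 1489 and 1068 (log2 fold change -1.91, limma, BH-adjusted p = 0.000142). Alpl, alkaline phosphatase, had 3170 and 3207 in the control and 5433 and 4035 in the tamoxifen libraries and was not called (0.55), but was at equal totals (1.02). Among the surface genes and secreted proteins of late stages, Retnlg, a resistin-like protein, had 6.85 and 15.02 in the control and 2676 and 2067 in the tamoxifen libraries (log2 fold change 7.71, SE 0.43, limma, BH-adjusted p = 1.3e-05). Csf3r, the receptor of granulocyte colony-stimulating factor, rose by 4.50 on the log2 scale (SE 0.42, limma, BH-adjusted p = 0.000103). Mxd1, a MYC antagonist of differentiating cells, had 1770 and 1635 in the control and 2294 and 1890 in the tamoxifen libraries and was not called. Ly6g, which defines mouse neutrophils and is named after its values were seen, had no control read and 164 and 134 normalized counts in the tamoxifen libraries.

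Of 10 transcription factors of granulocyte formation, 7 rose, 1 fell and 2 were not called, with a median log2 fold change of 2.87. Myb, a factor of proliferating progenitors, rose from 19.2 and 8.76 to 1037 and 918 normalized counts (log2 fold change 6.12, SE 0.45, limma, BH-adjusted p = 4.4e-05). Runx1 rose by 3.98 on the log2 scale (SE 0.33, limma, BH-adjusted p = 6.8e-05). Cebpd, a family member of Cebpe, fell from 3375 and 2650 to 931 and 571 (log2 fold change -2.03, SE 0.25, limma, BH-adjusted p = 0.000343). Cbfb, the partner of RUNX proteins, had a log2 fold change of 0.22 and Rara, a retinoic acid receptor gene, of 0.17, and neither was called.

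**Figure D4:**
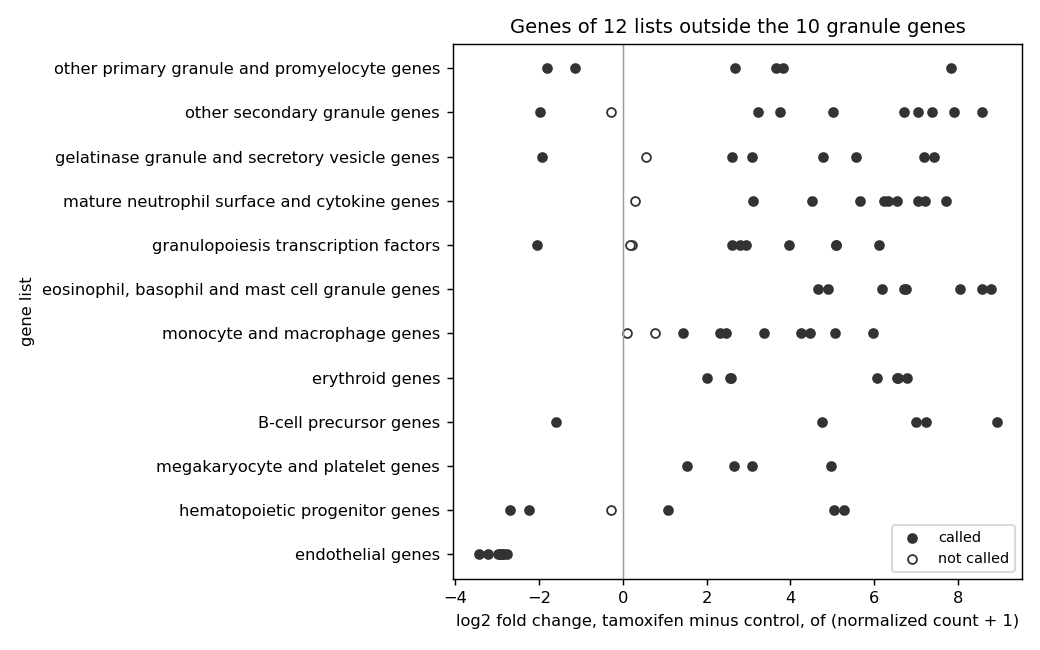
Log2 fold change of normalized count + 1, tamoxifen minus control, for the tested genes of 12 lists outside the 10 granule genes; filled points were called and open points were not. Of the 8 eosinophil, basophil and mast cell granule genes and the 7 erythroid genes all are called to the right of 0, and all 8 endothelial genes are called to the left. Genes with a control mean under 10 passed the filter only through the tamoxifen libraries.

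Genes of other granulocytes and blood lineages stood beside the neutrophil genes. All 8 tested granule genes of eosinophils, basophils and mast cells rose (median log2 fold change 6.74, or 6.14 with genes lacking control reads at their lower bounds). Only Prg2 and Epx of these had a control mean of at least 10. The others passed the filter only through the tamoxifen libraries, so a fall could not be called for them. Cma1, Mcpt4 and Tpsb2 of this list were not found by symbol in the expression table, so the list says little of mast cells. The summed level of the list was 20.5 and 90.1 normalized counts in the control and 8010.3 and 6004 in the tamoxifen libraries. Prg2, the gene of the eosinophil major basic protein, had 5.48 and 17.5 in the control and 5522 and 4161 in the tamoxifen libraries (log2 fold change 8.77, limma, BH-adjusted p = 1.3e-05), and per kilobase of exon its tamoxifen level was 5195 and 3914, above that of Mpo in both libraries. Epx (eosinophil peroxidase) and Ear2 (an eosinophil ribonuclease) rose by 4.65 and 6.76 (limma, BH-adjusted p = 0.000578 and 0.000113). Ear1, Ear6 and Mcpt8, a basophil protease gene, had no control read. The Ear genes are close copies of each other and uncertain singly. All 7 erythroid genes rose, among them Hbb-bs by 2.02, Slc4a1 by 6.77 and Hbb-bt by 2.58, with a sum of 16070 and 32559 in the control and 159643 and 106390.0 in the tamoxifen libraries. Copies of the beta-globin genes share reads, so Hbb-bs and Hbb-bt are uncertain singly.

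Monocyte and macrophage genes rose in 8 of 10 cases, with sums of 1514 and 2762 in the control and 10231 and 7987 in the tamoxifen libraries. Mpeg1, Ctss and Ptprc, the last a gene of leukocytes in general, rose by 3.37, 1.44 and 4.25. The log2 fold changes of Csf1r (0.77, or 1.24 and called at equal totals) and Cx3cr1 (0.10) were not called. All 4 megakaryocyte and platelet genes rose, namely Itga2b, Ppbp, Pf4 and Gp9, with sums of 292 and 572 in the control and 2734 and 2129 in the tamoxifen libraries. Of 5 B-cell precursor genes, 4 rose, among them Pax5 by 7.22 and Cd79a by 4.751. Ebf1, also a gene of pericytes, fell by 1.58 from 8120 and 8062 normalized counts, so that the summed list was 8150 and 8098 in the control and 5559 and 4743 in the tamoxifen libraries. Rag1 had no control read. Of 6 hematopoietic progenitor genes, 3 rose and 2 fell. The most abundant, Cd34 and Mecom, are also EC genes and had log2 fold changes of -2.24 and -2.69, Kit rose by 1.07 and Hlf was not called, with sums of 71540 and 72292 in the control and 25043 and 17781 in the tamoxifen libraries. Together 34 of the 48 tested genes of other cell types were called higher and 11 lower, beside 28.6% and 16.0% of all tested genes. Some of those called higher, Pax5 and Rag1 among them, also passed the filter only through the tamoxifen libraries. Leaving out either tamoxifen library lowered the higher calls to 17 and kept the lower calls at 11. The part of these cell types in the level of the granule genes was not tested.

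The sorted cell type was checked against its own genes. All 8 endothelial genes were lower in the tamoxifen libraries, with a summed level of 615681 and 619474 normalized counts in the control and 112863 and 59644 in the tamoxifen libraries. Pecam1, the gene of CD31, fell from 83681 and 88796 to 15987 and 8973 (log2 fold change -2.85, SE 0.31, limma, BH-adjusted p = 0.000181), and Kdr and Cldn5 had log2 fold changes of -2.75 and -2.97. Ptprc, whose product CD45 the sort excluded, rose from 50.7 and 83.9 to 1423 and 1119 (log2 fold change 4.25, SE 0.33, limma, BH-adjusted p = 5.0e-05). Mgp, the deleted gene, had 1094 and 1352 in the control and 945 and 909 in the tamoxifen libraries and was not called (log2 fold change -0.39, SE 0.18, limma, BH-adjusted p = 0.0986).

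The genes that lie next to the granule genes were compared to see whether whole chromosome stretches moved. Of 32 tested protein-coding neighbours within 50 kb, 9 were called higher and 5 lower (28.6% and 16.0% of all tested genes), and the median log2 fold change was 0.07. Without tamoxifen library 2, 8 of the 32 were called. Klhl18, 2892 bases from Ngp, fell by 1.22 (limma, BH-adjusted p = 0.000398), while Nme6, 4258 bases from Camp, had 274 and 330.4 normalized counts in the control and 412 and 433 in the tamoxifen libraries and was not called. Ciz1 and Bbln, within 4 kb of Lcn2, had log2 fold changes of -1.13, which was called, and -0.34, which was not. The falls of Klhl18 and Ciz1 were not called at equal totals (-0.75 and -0.66). Beside Elane, Cfd (complement factor D) lay 2617 bases away and rose from 5.48 and 0 to 46.6 and 24.4 normalized counts (log2 fold change 3.77, SE 0.94, limma, BH-adjusted p = 0.00993), Med16 had -0.55 and was not called, and Plppr3, which overlaps Prtn3, rose by 2.42. Mcpt8, at 14608 bases from Ctsg, had no control read and 127 and 85.5 normalized counts in the tamoxifen libraries, at least 27.0-fold higher. Cfd and Mcpt8 passed the filter only through the tamoxifen libraries. Lpo, a peroxidase gene 2014 bases from Mpo, rose by 1.498 (limma, BH-adjusted p = 0.0498) but was not called with TMM factors (1.47). Near Ltf, Lrrc2 rose by 3.58 and Ccrl2 and Rtp3 had log2 fold changes of -2.04 and -2.63, and near Cebpe, Slc7a8 fell by 1.28 (-0.81 and not called at equal totals). The remaining neighbours called higher were Tspoap1 near Mpo, Kiss1r near Elane, Cdc25a near Camp and Dnm1 near Lcn2.

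The genes whose centred log2 values over the 4 libraries lay nearest to the mean of each set were looked for among 13658 others whose mean reached 100 normalized counts. Nearest to the primary granule genes were Dazl (Euclidean distance 0.24), Tdgf1-ps1 (0.28), L1td1 (0.31), Fbxo15 (0.31) and Cstdc5 (0.36), whereas the 4 members themselves lay 0.33 to 1.24 from their own mean. Dazl, a germ cell gene, had 2.74 and 1.25 normalized counts in the control and 1684 and 1017 in the tamoxifen libraries. Nearest to the secondary granule genes were Rac2 (0.11), Ccl9 (0.15), Pklr (0.16), Grhl3 (0.18) and Hp (0.20), with the members at 0.84 to 3.91. The mean of this set is pulled down by Lcn2, the member at 3.91. The log2 fold changes of these nearest genes, from 6.79 for Grhl3 to 7.05 for Hp, lay below those of Ltf, Camp and Ngp. Rac2, a GTPase of blood cells, had 21.9 and 20.0 in the control and 3237 and 2172 in the tamoxifen libraries. With 4 libraries in 2 groups the distance takes in only the size of the difference and the ratio within each group.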

How the data were processed

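RNA of CD31+CD45- brain cells was sequenced in 2 control and 2 tamoxifen libraries. Alignment to GRCm39 and quantification used STAR 2.7.10a; the authors then dropped genes of low count before normalization in DESeq2 1.36.0. The annotation, strand setting and low-count limit are not given in the sources used here. The deposited signal is each gene's read count over a factor of its library, from which whole reads were recovered (100% of values within 0.01 of a whole number), with 35387438 to 49799321 reads per library.

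Differences were tested with limma 3.58.1 in R 4.3.3 (lmFit, eBayes with trend) on log2(normalized count + 1), limited to genes whose mean reached 10, with BH adjustment over all tested genes, and called at adjusted p under 0.05 and a log2 fold change over 1 in size. An exact two-sided permutation test of 2 against 2 libraries cannot go below 0.333, and limma gains its precision from the spread shared across genes. Intervals are exact Clopper-Pearson and, like the limit of 3 reads for a count of 0, cover counting error only. Gene spans, exon lengths and neighbours came from GENCODE M39, in which 24451 symbols matched, and near-identical transcripts were searched with blastn 2.17.0 (at least 90% identity over 100 bases). Alternatives were other pseudocounts and filters, equal totals, TMM factors, recovered reads in edgeR 4.0.16 or DESeq2 1.42.0, the replicate number as a block and each library left out.

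The members and lists were chosen with earlier results of these data known. From each list the text names up to 3 called genes and 2 genes not called with the highest mean, the neighbours within 50 kb, the 5 most alike genes per stage, Mgp, Pecam1 and Ptprc, and genes said to be named after their values were seen. A gene that this rule names is not reported here. Chil1 was matched to the table by its RefSeq synonym Chi3l1. Bpi, Cma1, Mcpt4, Tpsb2, Vpreb1 and Gp1bb were not found by symbol in the expression table and so were not analysed here.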

Additional observations from a re-analysis of the deposited data

How the results depend on the processing

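The 10 granule genes kept a positive log2 fold change under all 13 alternatives, of which 3 (both filters and the block) cannot change a single gene's fold change. Of the 100 values under the other 10, 82 moved by less than 1 SD between libraries and 18 by more. Leaving out 1 of the 2 libraries of a group cannot, apart from rounding, move a value by more than this SD. The values with 1 library left out therefore say nothing of stability on this measure. Their median of 8.21 was 8.52 and 7.33 with pseudocounts of 0.5 and 5, 8.63 at equal totals, 8.48 with DESeq2, and 7.88 to 8.70 with 1 library left out. Secondary minus primary granule fold change (-0.63) turned to 0.45 with a pseudocount of 5 and was -1.12 with edgeR and -1.21 with DESeq2. It was -0.69 to -0.60 with 1 library left out and -0.39 without Lcn2, the last chosen after seeing the data. The cause was not tested.

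Equal totals moved the median of all genes from 0.05 to 0.52 and gave 7206 higher and 1839 lower calls in place of 5867 and 3284. Of all genes 9151 were called, 5934 with a filter at a mean of 100, where fewer genes are tested, and 4147 to 9700 with 1 library left out. That range was 25 to 39 for other neutrophil genes, 28 to 45 for markers of other cells and 8 to 14 for neighbours, lowest without a tamoxifen library in each case.

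The primary granule share was 13.1% and 13.04% per kilobase of exon in tamoxifen libraries 1 and 2, 7.23% and 7.11% without Mpo and 28.4% and 27.5% without Ngp. In the control libraries it was at most 9.68% and 11.5%, without Lcn2, and 0.346% in control library 2 without Mpo.

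The shared replicate numbers are not stated to pair the libraries, and the same-numbered deviations correlated by 0.025. With the replicate block 9525 genes were called, with 39 of the other neutrophil genes, and no other count moved by over 1.5 times. Depth limits the control values of the primary granule genes, which rest on 2 to 10 reads each.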
